A study of Mus musculus with 40 samples.

Results

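Kidneys of mice with a knockout of the epidermal growth factor receptor in endothelial cells (EC-EGFR-KO) were compared with kidneys of EC-EGFR-WT mice after 18 weeks of high fat diet (HFD). The comparison rests on 8 whole-kidney RNA-seq libraries, 4 KO (a2, a3, a4 and a5) and 4 WT (a11, a13, a14 and a15), out of 20 kidney libraries and 40 libraries in the series. They were chosen by their labels of tissue, genotype and diet. KO library a1 and WT library a12 were left out, because the counts of these libraries differed by less than the sampling noise although they carry opposite genotypes (median chi-square over genes 0.0269, against at least 1.62 in each of the other 189 pairs of kidney libraries and 0.455 for sampling noise alone). In EC-EGFR-KO mice, floxed Egfr alleles were recombined by Tek-cre, a Cre recombinase driven by the Tie2 promoter. The protocol in the labels calls this cross a knockout in vascular smooth muscle cells, while it names the same Tie2-driven Cre, and the methods of the study describe an endothelial knockout. The EC-EGFR-WT controls carry the same Tek-cre transgene but no loxP sites. The Tek-cre line is on a C57BL/6J background, and the floxed mice are given as C57BL/6. HFD provided 60% of its energy as fat and was fed from an age of 6 weeks. The standard fat diet (SFD, 10%) is named SD in the labels, and its 5 KO and 5 WT kidneys served to estimate the spread and the interaction of genotype and diet. The sources used here do not name the animals' sex or the hour at which kidneys were taken.

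EGFR is a receptor tyrosine kinase that binds EGF and related ligands, pairs with itself or with ErbB2, ErbB3 or ErbB4, and signals through the MAP kinase cascade, whose output is limited by induced inhibitors such as Errfi1, the Sprouty proteins and the dual-specificity phosphatases. In the kidney, Egf itself is made by the distal convoluted tubule and the thick ascending limb, while EGFR is present in tubular epithelium, vessels and interstitial cells. Tek-cre is active in endothelium and also in blood-forming cells, so that KO may extend to leukocytes.

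The deletion in this model comprises exon 1 of Egfr, which holds the start codon. In transcript Egfr-201 of GENCODE M21 (GRCm38, plus strand) this exon covers chr11:16752211-16752570, the first of 28 exons, and its coding part of 88 bases lies at chr11:16752483-16752570. This coding part is shown because it lies within the longer stretch that the KO removes, 5′ to 3′, with the start codon in capitals.
Egfr exon 1, coding part: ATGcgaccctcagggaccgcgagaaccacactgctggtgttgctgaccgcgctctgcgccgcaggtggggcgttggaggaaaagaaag
The counts were summed over the whole gene (chr11:16752203-16918158), of whose exonic length of 11326 bases exon 1 makes up 3.18%. A kidney also contains many cells that are not endothelial and keep an intact gene. The study reports excision of the floxed fragment in DNA from lung or aorta, and reduced Egfr mRNA in lung by quantitative PCR. The primers that the study used for Egfr in quantitative PCR lie in exon 9 and exon 11 of the same transcript, outside the deleted exon, and are shown for that reason.
Egfr forward primer (chr11:16871678-16871697): gaccttcacatcctgccagt
Egfr reverse primer (chr11:16872875-16872894, minus strand): gcatggaggtcagtccagtt

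Total counts of the 8 libraries ranged from 19643033 to 24906014 and were lower in KO (19643033 to 22322767) than in WT (23354297 to 24906014), without overlap. Levels are given as FPM, the CPM value on the TMM-normalized library size. Every gene on chromosomes 9, MT, X and Y and on the distal part of chromosome 8 was listed at 0 in all kidney libraries. These genes could not be analysed, which removes Cdh5, Esam and Robo4 from the endothelial genes and Cbl, Adam10 and Nrg4 from the EGFR pathway. The kidney label was borne out by its defining genes: the summed level of 17 proximal tubule genes was 23592 to 28581 FPM, and 11 of 12 podocyte genes passed the expression filter. In whole tissue, fewer cells of a type and less RNA per cell cannot be told apart.

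Under HFD, no renal mRNA was called for the loss of endothelial EGFR. Of 16043 genes tested with edgeR's quasi-likelihood test, 0 (0%) had an adjusted p under 0.05, and the smallest adjusted p was 0.491, which is also the adjusted p of each gene named below at an unadjusted p under 0.05, while it was no smaller for the others. The DESeq2 Wald test and edgeR's likelihood ratio test each called 1 gene, the small nucleolar RNA gene Gm23823. Without adjustment, 1622 genes lay under a p of 0.05 (10.1% of those tested, where uniform p-values would give 802.2), of which 947 (5.90%) were higher and 675 (4.21%) lower in KO. This number was sensitive to single libraries: it was 3571 without KO library a3, but 665 without WT library a14, 723 without KO library a2, 879 without KO library a4 and 894 without WT library a11. The share higher in KO, 58.4%, also moved, to 50.9% without a2 and 50.1% without a14, and it was 38.1% with a12 kept as WT and 38.3% with all 20 libraries, so that most of these genes were then lower. The KO and WT libraries did not overlap at 291 genes that were higher in KO (1.81%) and 327 that were lower (2.04%). With total counts in place of TMM, these numbers were 167 and 499. In the other contrasts of the same fit, edgeR's quasi-likelihood test called 0 genes. The unadjusted p was under 0.05 at 431 genes (2.69%) for KO against WT under SFD, at 1360 (8.48%) for KO against WT over both diets and at 538 (3.35%) for the interaction. DESeq2 called 2 genes over both diets (Gm23823 and Prrg4) and the likelihood ratio test 1 (Gm23823), while both called 0 for SFD and the interaction. The precision was moderate. The higher of both HFD group means exceeded 1 FPM for 13701 genes, and among these the 95% interval of the fold change lay within 1.5-fold in either direction for 64.8% and within 2-fold for 91.4%.

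The level of Egfr did not separate the groups. It was 34.8, 60.6, 37.5 and 40.5 FPM in KO libraries a2, a3, a4 and a5, and 48.7, 45.7, 48.6 and 21.8 FPM in WT libraries a11, a13, a14 and a15. The lowest value of all 8 was thus a WT library and the highest a KO library. The means were 43.4 ± 11.8 FPM in KO and 41.2 ± 13 FPM in WT (SD, n = 4 each), with a log2 fold change of 0.08 (SE 0.20, adjusted p = 0.901 with edgeR) and a 95% interval from 0.787- to 1.41-fold. An exact two-sided permutation test of the difference gave p = 0.771, where 0.0286 is the smallest p possible with 4 against 4 libraries. Its sign rested on single libraries and was -0.12 without a3 and -0.13 without a15. Under SFD, Egfr was at 53.2 ± 4.34 FPM in KO and 56.5 ± 5.80 FPM in WT (SD, n = 5 each). Whole-kidney counts of Egfr therefore did not show the deletion under either diet. The tests of the deletion that the study describes used lung or aorta.

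Among the other receptors, only Erbb4, the neuregulin receptor, had an unadjusted p under 0.05. Its level was 11.1, 10.7, 11.3 and 7.33 FPM in KO against 15.6, 12.9, 18.1 and 12.1 FPM in WT. The groups did not overlap, and KO library a5 stood apart below the other KO libraries. The log2 fold change was -0.54 (SE 0.19, unadjusted p = 0.01), and 0.03 under SFD. Erbb2, the co-receptor without a known ligand of its own, differed little, with 61.6 ± 2.95 FPM in KO and 65.2 ± 2.41 FPM in WT (SD, n = 4 each). Its fold change had a 95% interval from 0.837 to 1.07. Erbb3, which signals as a partner of the other receptors, was at 110.1 ± 16.2 and 115 ± 6.54 FPM, with an interval from 0.834 to 1.10. Both intervals exclude a difference of 1.5-fold.

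Egf was the most abundant transcript of the group. It had 881, 902, 850 and 763 FPM in KO and 1226, 1080, 1062 and 833 FPM in WT. The 3 highest values were WT libraries, while WT library a15 lay within the KO range. The log2 fold change was -0.31 (SE 0.14, unadjusted p = 0.0431). Tgfa, a second EGFR ligand, was at 2.75, 3.29, 2.81 and 2.38 FPM in KO and at 3.29, 3.40, 3.93 and 3.93 FPM in WT, so that the groups just failed to overlap. Its log2 fold change was -0.37 under HFD (SE 0.18, unadjusted p = 0.0563) and 0.33 under SFD, with an unadjusted interaction p of 0.00936 (the smallest adjusted interaction p of any gene was 0.960). Hbegf, the heparin-binding ligand, had 13.4 ± 1.99 FPM in KO and 16.5 ± 2.98 FPM in WT, and betacellulin (Btc) 5.46 ± 1.17 and 5.39 ± 1.48 FPM (SD, n = 4 each). The neuregulins Nrg1 and Nrg2 had log2 fold changes of -0.28 (SE 0.29) and 0.24 (SE 0.67). Areg, Ereg and Epgn were below the expression filter, and Nrg3 was listed at 0. Nrg4 lies on chromosome 9, where every gene was listed at 0, and could not be analysed. Per kilobase of exonic length, the WT means were 93.2 FPM for Egf, 19.1 for Erbb3, 12.5 for Erbb2, 3.63 for Egfr, 3.41 for Hbegf, 1.19 for Erbb4 and 0.560 for Tgfa. With the clock score or the length score described below as a covariate, Egf had log2 fold changes of -0.27 and -0.13 (unadjusted p = 0.0646 and 0.392), and Erbb4 of -0.54 and -0.26 (unadjusted p = 0.0129 and 0.181). The unadjusted p of Egf was above 0.05 in 10 of 20 alternatives.

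**Figure D1:**
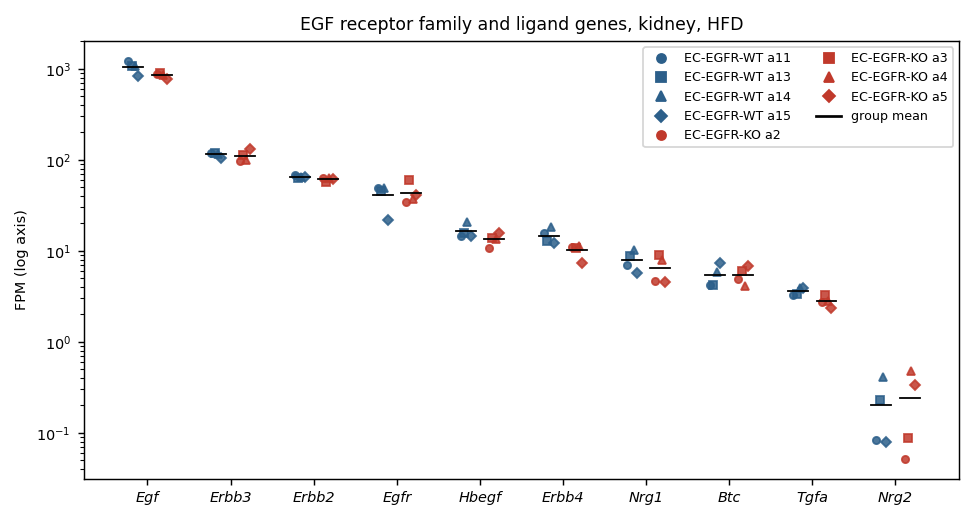
Levels of the 10 tested EGF receptor family and ligand genes in each HFD kidney, in FPM on a log axis, with EC-EGFR-WT libraries in blue, EC-EGFR-KO libraries in red and the group mean as a line. The 4 KO values of Erbb4 and of Tgfa lie below the 4 WT values, while the Egfr values of the groups are mixed, with WT library a15 lowest and KO library a3 highest.

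Feedback inhibitors and transcriptional targets of EGFR signalling were mostly somewhat lower in KO, with no member past an unadjusted p of 0.05. Of 17 listed genes, 15 were tested, 2 were higher and 13 lower, and the median log2 fold change was -0.16 (-0.01 over all genes tested), against -0.03 under SFD. The phosphatase gene Dusp4 and the inhibitor gene Spry4 did not overlap between the groups and were lower in KO (2.04% of all genes), Dusp4 with 11.9, 13.9, 12.7 and 14.6 FPM in KO and 22.3, 19.4, 19.8 and 16.2 FPM in WT (log2 fold change -0.55, SE 0.43). Both genes varied strongly among the SFD kidneys, which share the estimate of the spread (Dusp4 22.2 ± 12.2 FPM in KO and 23.1 ± 16.3 FPM in WT, SD, n = 5 each). The smallest p was that of Spred2, an inhibitor of RAS-MAP kinase signalling, with 30.9, 47.4, 32.5 and 39 FPM in KO and 50.9, 45.3, 48.1 and 40 FPM in WT (log2 fold change -0.30, SE 0.15, unadjusted p = 0.0541). Cblb, a ubiquitin ligase of activated receptors, and Spred1 had log2 fold changes of -0.24 and -0.16. With 1 library left out, that of Cblb ranged from -0.30 to -0.15. Errfi1, the direct inhibitor of the EGFR kinase, was at 655 FPM in KO and 734 FPM in WT (log2 fold change -0.16, unadjusted p = 0.67). With the length score as a covariate, the median of the list was 0.05.

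Genes around the targeted locus showed no pattern of their own. Within 10 Mb of the start of Egfr, 69 genes were tested with a median log2 fold change of -0.04, 32 higher and 37 lower in KO. The median was 0.00 for the other 1317 genes of chromosome 11. An unadjusted p under 0.05 was found for 6 of the 69 (8.70%), close to the 10.0% of the rest of the chromosome. These were the processed pseudogene Gm12034, Commd1 and the malate dehydrogenase gene Mdh1, all higher in KO, and Hus1, Cobl and the focal adhesion gene Tns3, all lower. The largest of these 6 differences was that of Gm12034, 3.69 Mb from Egfr, with 6.64, 4.61, 7.12 and 4.66 FPM in KO and 3.67, 3.78, 3.64 and 3.45 FPM in WT (log2 fold change 0.66, SE 0.19, unadjusted p = 0.00234).

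The genes with the smallest p-values were examined one by one, and none had an adjusted p under 0.05. Lamtor1, a subunit of the complex that anchors mTORC1 to lysosomes (chr7:101905904-101926675), was at 92.3, 82.8, 98.0 and 101 FPM in KO and at 67.9, 76.6, 74.7 and 79.9 FPM in WT. Every KO library was above every WT library, by a log2 fold change of 0.32 (SE 0.07, unadjusted p = 0.000313), while under SFD the log2 fold change was -0.04. Fhit, a hydrolase of diadenosine polyphosphates, had 13.3, 10.1, 11.9 and 10.9 FPM in KO and 7.30, 9.03, 8.27 and 8.62 FPM in WT, again without overlap (log2 fold change 0.47, SE 0.11). The other genes with the smallest p among those higher in KO were the nucleoside diphosphate kinase gene Nme2 (0.70), Ostc of the oligosaccharyltransferase (0.34), the ribosome biogenesis factor Emg1 (0.34), the pseudogene Gm16418 (0.64) and the cytochrome c oxidase assembly factor Cox16 (0.37), all as log2 fold changes. Reads of Nme2 can be shared with its close paralog Nme1, so its level is uncertain. Gm23823 (chr14:77540642-77540765), the gene called by the other tools, had 1.87, 1.10, 0.747 and 0.761 FPM in KO and 0.295, 0.232, 0.111 and 0.241 FPM in WT. This is a log2 fold change of 2.32 (SE 0.44, unadjusted p = 3.98e-05), and 1.05 under SFD (unadjusted p = 0.00949), at no more than 1.87 FPM in any HFD library. The gene spans 124 bases, less than a read of 150 bp, and the RNA was poly(A) selected. Its counts therefore need not measure the small nucleolar RNA itself.

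On the other side, Syne3, which encodes the outer nuclear membrane protein nesprin-3 (chr12:104929933-105009809), was at 3.53, 3.51, 3.16 and 3.95 FPM in KO and 7.01, 5.36, 5.45 and 5.01 FPM in WT (log2 fold change -0.69, SE 0.16, unadjusted p = 0.000336). The groups did not overlap, and the log2 fold change under SFD was 0.10. Zbtb20, a zinc finger transcription factor, had 149, 184, 127 and 136 FPM in KO and 277, 243, 232 and 162 FPM in WT (log2 fold change -0.62, SE 0.15). Here WT library a15 overlapped the KO range. Lrrc75b showed 4.51, 2.41, 2.11 and 3.57 FPM in KO against 6.92, 5.09, 7.16 and 4.65 FPM in WT (log2 fold change -0.92, SE 0.23), with KO library a2 just below the lowest WT library. The remaining genes lower in KO were Pdik1l (-0.45), the antisense RNA gene Myadml2os (-1.19), Slco4c1 (-0.46), an organic anion transporter of the proximal tubule, the cyclic AMP phosphodiesterase gene Pde4d (-0.52) and Atxn1 (-0.47). Whether the counting used strand is not stated, so reads of Myadml2os and of genes on the opposite strand cannot be told apart. Prrg4, a transmembrane Gla protein, had lower means in KO under both diets, with 2.13, 3.73, 2.68 and 2.76 FPM in KO and 6.08, 3.86, 6.05 and 4.57 FPM in WT under HFD (log2 fold change -0.86, SE 0.22) and a log2 fold change of -0.59 under SFD (unadjusted p = 0.00782). The lncRNA gene Gm47761 completed the large differences without overlap (10.2 ± 1.26 against 18.3 ± 1.70 FPM, SD, n = 4 each, log2 fold change -0.85, unadjusted p = 0.0515).

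Of the 16 genes taken by the smallest p, 12 did not overlap between the groups (1.81% of all genes higher and 2.04% lower) and 7 differed by more than 1.5-fold. The same 8 libraries chose these genes, so nothing is read from this count. Under SFD, 8 of the 16 had the same sign and 1, Gm23823, had an unadjusted p under 0.05. All 16 had an unadjusted interaction p under 0.05, but the interaction uses the same HFD libraries that chose the genes, and 0 genes passed adjustment. The 8 genes higher in KO had a median exonic length of 2121 bases and the 8 lower ones 5679 bases, against 3682 bases over all genes.

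**Figure D2:**
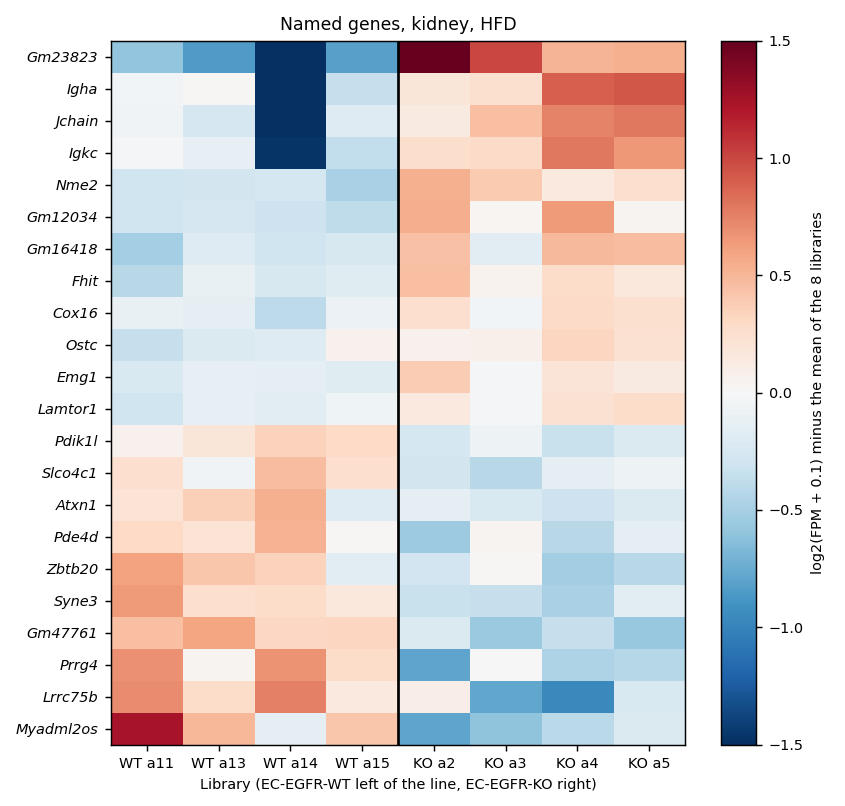
Heat map of the 22 genes with the smallest p or the largest differences without overlap, as log2(FPM + 0.1) minus the mean of the 8 HFD libraries, EC-EGFR-WT left and EC-EGFR-KO right of the line. Igha, Jchain and Igkc are lowest in WT library a14, and the differences of Lamtor1, Emg1, Ostc and Cox16 are pale because they are well under 2-fold.

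Genes of short and of long exonic length differed in opposite directions. When the tested genes were divided into quintiles by exonic length, the median log2 fold change was 0.17, 0.08, 0.01, -0.06 and -0.14 from the shortest quintile (up to 1677 bases) to the longest (6824 bases or more). In the shortest quintile 68.0% of genes were higher in KO, in the longest 19.9%. Under SFD the corresponding medians were 0.02, 0.02, 0.01, -0.02 and -0.06. Across genes, which are not independent replicates, Spearman's rho of the log2 fold change with exonic length was -0.383 under HFD and -0.162 under SFD over 16025 genes with a length. A score was formed for each library, the median deviation of the shortest quintile minus that of the longest quintile on the log2 scale. It was 0.32, -0.23, 0.25 and 0.14 in KO libraries a2, a3, a4 and a5, and -0.18, -0.09, -0.32 and -0.07 in WT libraries a11, a13, a14 and a15. Hence 3 of the 4 KO libraries lay above all WT libraries, and the KO library a3 lay below all but 1 of them. In SFD kidneys the score ranged from 0.02 to 0.13 in KO and from -0.22 to 0.37 in WT, so a spread of this size occurred within a group. With the score as a covariate, a fit chosen after seeing the data, the number of genes with an unadjusted p under 0.05 was 647 in place of 1622, of which 45.7% were higher in KO in place of 58.4%, and 0 had an adjusted p under 0.05. The score was made from the same counts, and no measure of RNA quality was used here.

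**Figure D3:**
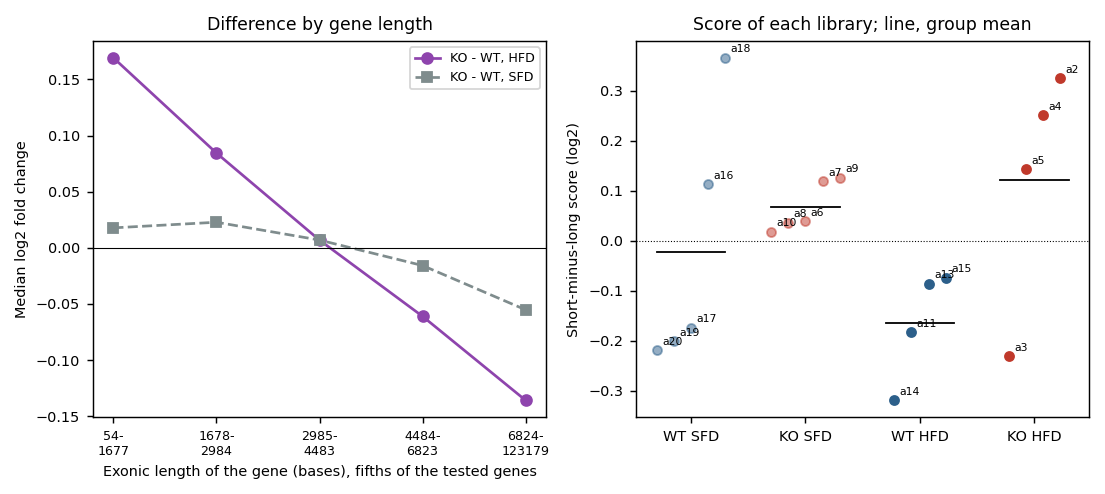
Left, the median log2 fold change of KO over WT in quintiles of the tested genes by exonic length in bases, for HFD (solid) and SFD (dashed), which runs from 0.17 to -0.14 under HFD. Right, the short-minus-long score of each of 18 kidney libraries on the log2 scale by group, with the group mean as a line, where KO library a3 lies among the WT libraries of the HFD.

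Nuclear-encoded subunits of the respiratory chain and of ATP synthase were the group with the most members at a low unadjusted p. This list and that of ribosomal proteins were formed by gene name after the values were seen. Each of the 71 tested subunits had a positive log2 fold change, 49 at an unadjusted p under 0.05 (5.90% of all genes on this side), 0 with an adjusted p under 0.05, and their median log2 fold change was 0.34, against -0.02 under SFD. Ndufc2, a complex I subunit, was at 158, 133, 161 and 164 FPM in KO and at 120, 120, 120 and 130.3 FPM in WT, without overlap (log2 fold change 0.33, SE 0.09, unadjusted p = 0.00194). Cox7c of complex IV had 542, 399, 494 and 468 FPM in KO and 336, 377, 347 and 440 FPM in WT (log2 fold change 0.34, SE 0.11). The groups overlapped here, as for all but 1 of the 71 genes. By complex, an unadjusted p under 0.05 was found for 25 of 34 genes of complex I (NADH dehydrogenase), 2 of 3 of complex II, 3 of 7 of complex III, 7 of 11 of complex IV (cytochrome c oxidase) and 12 of 16 of ATP synthase. The summed level of the 71 genes was 29617, 22758, 27752 and 27792 FPM in KO and 21848, 23111, 21066 and 24093 FPM in WT, so that KO library a3 was within the WT range and the other 3 above it. With a12 kept as WT, or with all 20 libraries, 3 of the 71 had an unadjusted p under 0.05 and were higher. The subunits encoded by mitochondrial DNA could not be compared, since that chromosome was listed at 0.

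Of the genes of cytosolic ribosomal proteins, all 69 tested had a positive log2 fold change, 45 with an unadjusted p under 0.05 (5.90% of all genes on this side) and 0 with an adjusted p under 0.05, with a median log2 fold change of 0.33 under HFD and 0.02 under SFD. Their summed level was 23257, 14844, 21087 and 18774 FPM in KO and 15286, 16167, 14263 and 16744 FPM in WT. Again a3 was at the level of the WT kidneys. Ribosomal protein genes have many processed pseudogenes, and how multimapping reads were handled is not stated, so values of single members are uncertain. Both groups consist largely of short genes, with median exonic lengths of 1675 and 1830 bases. Among the genes of the shortest quintile whose higher group mean exceeded 50 FPM, 176 of 421 (41.8%) were higher with an unadjusted p under 0.05, and their median was 0.27. The members of longer exonic length, beyond the second quintile (over 2984 bases), had medians of 0.26 (16 respiratory chain genes) and 0.35 (15 ribosomal protein genes). Exonic length merges all annotated exons of a gene, so these members need not have long transcripts. Their values therefore cannot separate these groups from transcript length. With the length score as a covariate, 1 respiratory chain gene and 0 ribosomal protein genes had an unadjusted p under 0.05, with medians of 0.02 and -0.03. For ribosomal protein genes the number was 3 with a12 kept as WT and 1 with all 20 libraries. Leaving out single libraries moved the number of respiratory chain genes between 7 (without a2) and 63 (without a3), with 13 without a14, 24 without a11, 28 without a4 and 32 without a5. The ribosomal protein genes ranged from 2 (without a2) to 62 (without a3), with 5 without a14, 6 without a4 and 12 without a11.

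**Figure D4:**
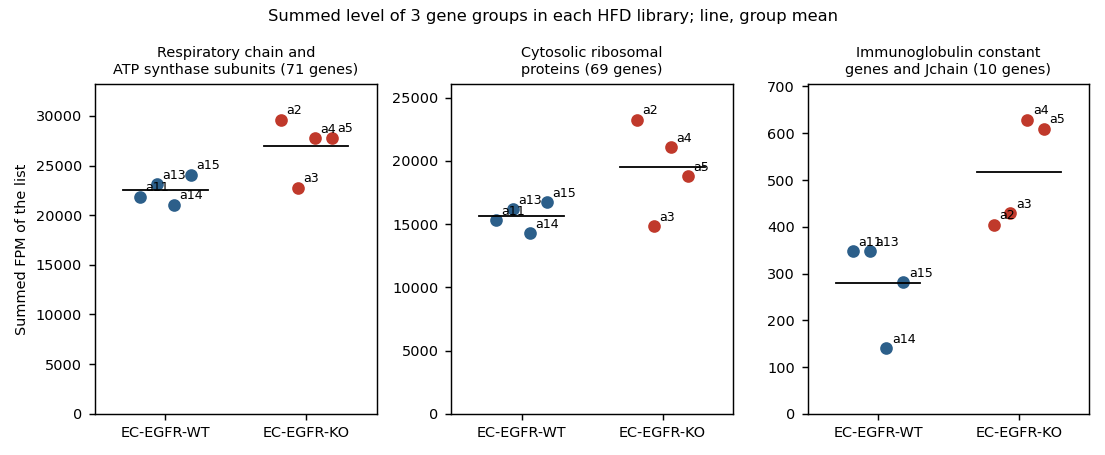
Summed FPM of 71 respiratory chain and ATP synthase genes, 69 cytosolic ribosomal protein genes and 10 immunoglobulin genes in each HFD kidney, with the group mean as a line and axes that start at 0. In the left and middle panels KO library a3 lies with the WT libraries, while in the right panel all KO libraries lie above all WT libraries.

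Immunoglobulin transcripts, which come from plasma cells, had the highest fold changes among the genes over 5 FPM that did not overlap and were higher in KO. Igha, the constant region of the IgA heavy chain, was at 186, 195, 306 and 315 FPM in KO and at 159, 166, 44.8 and 129.6 FPM in WT. Its log2 fold change was 1.00 (SE 0.56, unadjusted p = 0.0907, adjusted p = 0.518 with edgeR), and -0.22 under SFD. Jchain, which joins IgA into dimers, had 42.1, 52.5, 64.5 and 66.5 FPM in KO and 36.9, 32.1, 12.4 and 33.4 FPM in WT (log2 fold change 0.97, SE 0.55, adjusted p = 0.525). The kappa light chain gene Igkc had 152, 154, 219 and 199.9 FPM in KO and 124, 117, 45.8 and 98.5 FPM in WT (log2 fold change 0.91, SE 0.43, unadjusted p = 0.0492). The unadjusted p of Igkc was above 0.05 in 10 of 20 alternatives, with log2 fold changes from 0.51 to 1.22, and it was 0.0853 with the clock score and 0.0405 with the length score as a covariate. For Igha the log2 fold change ranged from 0.41 to 1.35 and for Jchain from 0.51 to 1.44, with the lowest values where a12 was kept as WT. In all 3 genes the WT library a14 was far below the other WT libraries. Under SFD the spread within a group was wide, with Igha at 162 ± 109 FPM in KO and 189 ± 115 FPM in WT (SD, n = 5 each). In a list of 10 genes made of immunoglobulin constant genes and Jchain, formed after the values were seen, 8 were higher and 2 lower, with a median log2 fold change of 0.53. The B cell genes Cd79a and Ms4a1 had log2 fold changes of 0.42 (SE 0.36) and 0.33 (SE 0.58), and Ighm, the constant region of IgM, of -0.24 (SE 0.46). Of 13 tested lymphocyte genes, 7 were higher and 6 lower. The T cell genes Cd3e, Cd3d and Cd3g lie on a chromosome where every gene was listed at 0, and could not be analysed. Cd4, among the lower ones, had a log2 fold change of -0.68 (SE 0.44, unadjusted p = 0.134).

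Of 24 listed endothelial genes, 21 were tested, 11 higher and 10 lower in KO, with a median log2 fold change of 0.01 under HFD and 0.19 under SFD. The HFD median was 0.34 with the length score as a covariate. The endothelial adhesion gene Pecam1 was at 60.9 FPM in KO and 62.6 FPM in WT, Tek, whose promoter drives the Cre, at 36.1 and 39.1 FPM, and the VEGF receptor gene Kdr at 75 and 84.3 FPM (log2 fold changes -0.04, -0.12 and -0.17). The tight junction gene Cldn5 had 12.2, 10.0, 10.3 and 9.04 FPM in KO and 7.77, 8.95, 7.34 and 7.26 FPM in WT (log2 fold change 0.41, SE 0.13, unadjusted p = 0.00495), and 0.29 under SFD (unadjusted p = 0.0211). Icam2, an adhesion molecule of endothelium, was at 10.9, 8.38, 12.4 and 9.14 FPM in KO and at 7.34, 7.64, 8.01 and 7.74 FPM in WT (log2 fold change 0.41, SE 0.15, unadjusted p = 0.014). Neither gene overlapped between the groups. These are 2 of 21 members, where 1.81% of all genes were higher without overlap and 5.90% higher at an unadjusted p under 0.05. Both are short (1416 and 1904 bases), and with the length score as a covariate their log2 fold changes were 0.29 and 0.49. In 1 of 20 alternatives for Cldn5 and 2 of 20 for Icam2, the unadjusted p was above 0.05 (up to 0.116 and 0.0837). Among 18 genes of vascular tone, Ece1, which makes active endothelin, was at 54.2, 64.0, 61.3 and 61.6 FPM in KO and at 76.7, 71.9, 80.0 and 61.2 FPM in WT (log2 fold change -0.27, SE 0.08, unadjusted p = 0.00453), with WT library a15 at the level of the KO kidneys. The list's median was -0.05. Among 9 tested genes of smooth muscle and pericytes, 5 were higher, 4 lower and 1, Notch3, had an unadjusted p under 0.05 (-0.43), against 4.21% of all genes on this side. The unadjusted p of Notch3 was above 0.05 in 9 of 20 alternatives, and its log2 fold change was -0.09 with the length score as a covariate.

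Genes of the filtration barrier and of albumin uptake are of interest because the study measured albumin excretion. Podocyte genes had a median log2 fold change of -0.09, with 2 of 11 higher and none at an unadjusted p under 0.05. With the length score as a covariate, this median was 0.38, and with single libraries left out it ranged from -0.17 (without a3) to -0.04 (without a11). The summed level of these genes was 848 FPM in KO library a3, against 609 to 693 FPM in the other KO libraries and 712 to 774 FPM in WT. The slit diaphragm gene Nphs1 was at 19.8 FPM in KO and at 19 FPM in WT. Among 11 genes of protein endocytosis and lysosomal breakdown, 8 were higher and 3 lower (median 0.14). The lysosomal protease gene Ctsl had 885, 794, 772 and 825 FPM in KO and 666, 695, 659 and 722 FPM in WT, with no overlap (log2 fold change 0.26, SE 0.08, unadjusted p = 0.00405). In 1 of 20 alternatives the unadjusted p of Ctsl was above 0.05 (0.0768). Cubn, which encodes the albumin receptor cubilin, was at 257, 301, 258 and 284 FPM in KO and at 311, 298, 331 and 319 FPM in WT (log2 fold change -0.20, SE 0.09, unadjusted p = 0.0436). Its unadjusted p was above 0.05 in 12 of 20 alternatives, with 0.0599 for the clock score and 0.144 for the length score as a covariate. KO library a3 overlapped the WT range here. Megalin (Lrp2), its partner, had a log2 fold change of -0.14 (unadjusted p = 0.18). Cubn spans 14935 exonic bases.

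Proximal tubule genes had a median log2 fold change of 0.08 (11 of 17 higher, 2 higher and 0 lower at an unadjusted p under 0.05, against 5.90% and 4.21% of all genes), genes of the loop of Henle and distal tubule 0.00 (5 of 11 higher) and collecting duct genes 0.01 (7 of 13 higher). Fbp1, an enzyme of gluconeogenesis in the proximal tubule, did not overlap between KO (1422 to 1554 FPM) and WT (1189 to 1320.4 FPM), with a log2 fold change of 0.22 (SE 0.07, unadjusted p = 0.00582). Miox, an enzyme of inositol breakdown, was at 2461 ± 366 FPM in KO and 1997 ± 176 FPM in WT (SD, n = 4 each, log2 fold change 0.30, unadjusted p = 0.047), and its unadjusted p was above 0.05 in 10 of 20 alternatives. Atp6v1g3, a proton pump subunit of intercalated cells, had 47.6, 49.0, 52.3 and 41.6 FPM in KO and 29.1, 40.2, 25.6 and 36.5 FPM in WT (log2 fold change 0.54, SE 0.15, unadjusted p = 0.00235). The intercalated cell anion exchanger Slc4a1 and the water channel gene Aqp4 went the other way (-0.29 and -0.42, unadjusted p = 0.0349 and 0.0203), and for each the unadjusted p was above 0.05 in 7 of 20 alternatives. In the lists of tubular injury (9 of 14 higher, median 0.11), fibrosis and matrix (4 of 18 higher, -0.10), macrophages (7 of 13 higher, 0.03) and interferon response (13 of 22 higher, 0.06), 0 members had an unadjusted p under 0.05. Single libraries moved these medians. That of macrophages ranged from -0.09 (without a15) to 0.22 (without a13), that of fibrosis and matrix from -0.15 (without a15) to -0.02 (without a13), that of interferon response from -0.0044 (without a4) to 0.12 (without a5), and that of the loop of Henle and distal tubule from -0.10 (without a15) to 0.07 (without a11).

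In lipid metabolism, 2 of 29 tested genes of fatty acid oxidation and PPAR targets had an unadjusted p under 0.05, both lower in KO, beside 4.21% of all genes on this side. Ppara, the nuclear receptor that induces fatty acid oxidation, was at 25.7, 46.3, 21.0 and 37.8 FPM in KO and at 66.4, 51.4, 66.1 and 45.6 FPM in WT. WT library a15 lay just under KO library a3. The log2 fold change was -0.81 (SE 0.24, unadjusted p = 0.00302) under HFD and -0.51 under SFD (unadjusted p = 0.0265). With the length score as a covariate, the HFD value was -0.43 (unadjusted p = 0.0346). Its target Cyp4a31, a fatty acid hydroxylase, had 193, 241, 218 and 171 FPM in KO and 298, 274, 290.1 and 256 FPM in WT, without overlap (log2 fold change -0.44, SE 0.12, unadjusted p = 0.00186). The list as a whole had 12 members higher and 17 lower, with a median of -0.07. Genes of sterol and fatty acid synthesis had a median of 0.08 (16 of 20 higher), and the smallest p was that of Dhcr7 (unadjusted p = 0.196). Of 11 tested redox genes (median 0.09), 1 was lower at an unadjusted p under 0.05, Gclm of glutathione synthesis (-0.18), and 1 higher, Prdx1 (0.27), and of 13 tested cell cycle genes (median 0.14) 1 was higher, Pcna (0.22). These counts are near the shares of all genes, 4.21% lower and 5.90% higher. The unadjusted p of Prdx1 was above 0.05 in 7 of 20 alternatives, with a log2 fold change down to 0.033, that of Pcna in 3 and that of Gclm in 2.

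**Figure D5:**
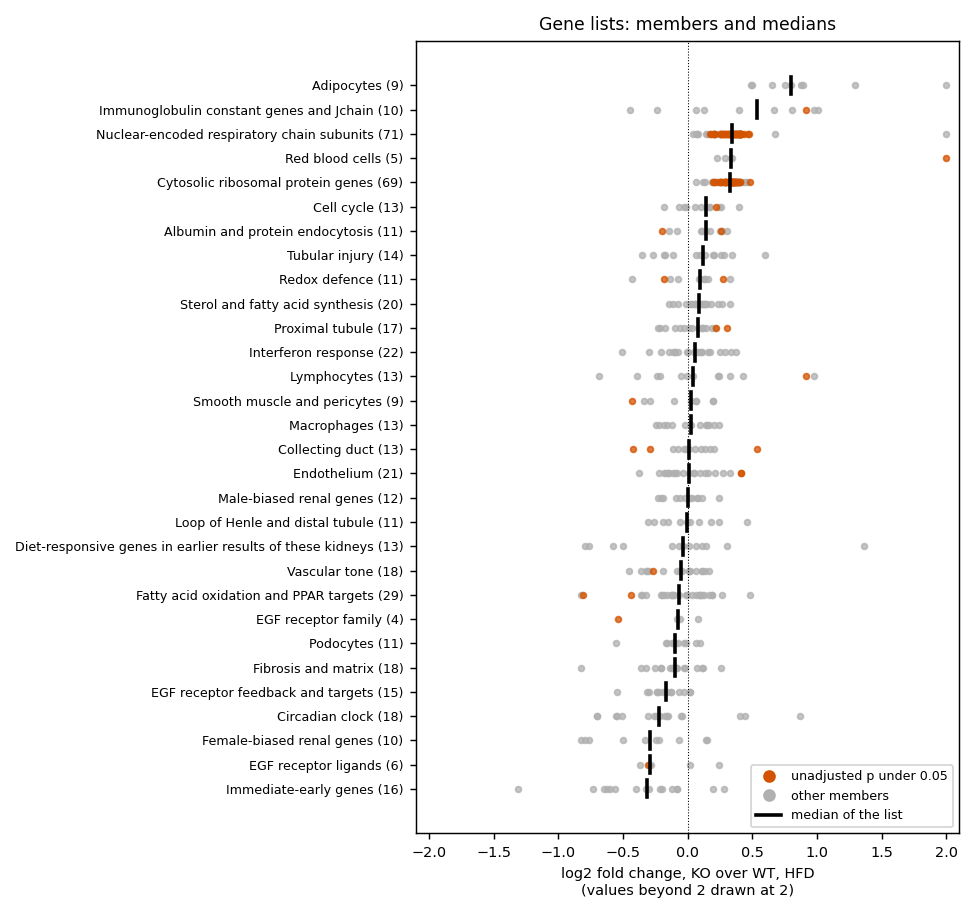
Log2 fold change of KO over WT under HFD for the tested members of each gene list, with the number tested in brackets, members at an unadjusted p under 0.05 in orange and the median of the list as a black line. Values beyond 2 are drawn at 2, and members of the adipocyte, red blood cell, respiratory chain and ribosomal protein lists all lie above 0, while the other lists shown lie on both sides of 0.

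Other lists describe adhering tissue, time of day, stimulation and sex. All 9 adipocyte genes had a positive log2 fold change under HFD (median 0.80), with 0 at an unadjusted p under 0.05. The direction was opposite under SFD, with 0 of 9 higher in KO and a median of -2.04. The SFD groups overlapped widely, with scores of this list from -2.75 to 0.423 in KO and from -2.12 to 2.37 in WT. The HFD median was 0.22 without a3, 1.20 without a5, 1.56 without a13 and 0.51 without a15, and 1.34 with the length score as a covariate. The summed level of the 9 genes was 142, 264, 168 and 54.7 FPM in KO and 68.5, 165, 90.8 and 70.9 FPM in WT, and Ucp1 of brown fat reached 15.7 FPM in KO library a4 against 0.0519 to 1.44 in the others, apart from a11, where it was listed at 0. The part of adhering fat in other results was not tested. Circadian clock genes had a median of -0.22 (3 of 18 higher). The clock score, the mean log2 level of 6 genes such as Dbp and Per3 minus that of 4 genes of the opposite phase such as Arntl, was 3.49 in KO library a2 and 4.57 in WT library a11, against 0.19 to 1.88 in the other 6. Without a11, the median of the clock list was 0.06. Immediate-early genes had a median of -0.31 (2 of 16 higher, range -0.44 to -0.20 with 1 library left out), with 0 at an unadjusted p under 0.05. The direction turned with the length score as a covariate, where this median was 0.54, and under SFD it was 0.88 (16 of 16 higher). The SFD value rests on few kidneys. The score of this list was 2.97 and 3.54 in KO libraries a8 and a9 and 3.29 in WT library a17. In the other SFD kidneys it was -1.35 to -0.454. The SFD kidneys share the estimate of the spread, so the lack of low p-values under HFD says little for these genes. Female-biased renal genes were at -0.29 (2 of 10 higher, range -0.42 to -0.25 with 1 library left out), with summed levels of 529 to 588 FPM in KO and 653 to 828 FPM in WT, which did not overlap, and male-biased ones at 0.00 (6 of 12 higher), with 0 members of either list at an unadjusted p under 0.05. For the 13 genes that respond to diet in earlier results of these kidneys, the median was -0.04 (6 higher, 7 lower). In the adrenal cortex list, 2 of 8 genes passed the filter, while the defining steroidogenic genes Cyp11b1 and Cyp21a1 were below it and Cyp11b2 was listed at 0.

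The 4 tested haemoglobin genes, markers of red blood cells, had positive log2 fold changes (0.34 for Hba-a1 and Hba-a2, 0.29 for Hbb-bs and 0.22 for Hbb-bt) with unadjusted p-values from 0.365 to 0.496. Hba-a2 was at 309 to 593 FPM in KO and 319 to 433 FPM in WT, so the groups overlapped. The log2 fold changes of Hba-a1 and Hba-a2 were -0.20 and -0.19 with the length score as a covariate. The part of red blood cells in other results was not tested. Reads of the near-identical Hba-a1 and Hba-a2 could be split between them.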

How the data were processed

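RNA of whole kidneys was sequenced by the authors after poly(A) selection as paired-end reads of 2 × 150 bp. The labels name HISAT2 2.1.0 for mapping, the methods of the study TopHat2, and featureCounts for counting on GRCm38/mm10. The deposited table holds raw counts per gene, whole numbers without normalization or filter, for 55382 genes, of which 55141 IDs matched the names table. Groups follow the genotype, diet and tissue that the labels give. The aorta table was not used.

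The 18 kidney libraries without a1 and a12 were fitted in edgeR 4.0.16 (R 4.3.3), with its filter filterByExpr by group, TMM normalization, robust quasi-likelihood estimation and Benjamini-Hochberg adjustment over the 16043 genes tested. A gene was called at an adjusted p under 0.05. Unadjusted p-values come from the same fit. Total counts of the 8 HFD libraries lay between 19643033 and 24906014, and the biological coefficient of variation was 18.6%. Intervals are at 95%. Coordinates, exonic lengths (merged exons) and the Egfr transcript come from GENCODE M21. The primers were read from the study's supplement. List scores used log2(FPM + 0.1).

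The comparison, its gene lists and tests were chosen with earlier results of these data known. The text names Egfr and the tested genes of its family and ligands, the 8 genes higher and the 8 lower in KO with the smallest p at a mean over 1 FPM in at least 1 group, the 4 each way with the largest difference without overlap over 5 FPM, and up to 3 members of each list with the smallest p. Other list members are named as examples of function. Alternatives were the Wald test of DESeq2 1.42.0, its size factors in edgeR, edgeR's likelihood ratio test, other filters, no robust estimation, the HFD libraries alone, a1 and a12 kept, a clock score as covariate and leaving out each HFD library. Added after seeing the data were the length score as covariate and 3 lists. The labels do not say that the libraries of a group are more than separate samples, so p-values measure the spread between them. Genes on the chromosomes listed at 0 are not analysed here, and some items are not reported here.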

Additional observations from a re-analysis of the deposited data

Results flagged for a closer look

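Among 88 groups of 4 libraries examined for totals, scores and genes of the EGF family, 7 held a library whose gap to the nearest other passed Dixon's 95% critical value for the gap over the group's range. Chance alone gives about 1 in 20 such groups, here 4.4. Egfr in WT library a15 (21.8 FPM) stood apart from the other WT kidneys (45.7 to 48.7 FPM), and Erbb4 in KO library a5 (7.33 FPM) from the other KO kidneys (10.7 to 11.3 FPM). WT library a11 stood apart in the clock score (4.57, the others 1.33 to 1.77) and in the mean score of the clock list (0.321, the others -0.160 to -0.0923). Gene list scores also stood apart for smooth muscle and pericytes in KO library a4 (0.0552, the others -0.0702 to -0.0532), for the collecting duct in WT library a15 (-0.137, the others -0.0672 to -0.0538) and for fibrosis and matrix in KO library a5 (-0.143, the others 0.231 to 0.291).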

How the results depend on the processing

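The number of genes with an adjusted p under 0.05 was 0 for SFD and for the interaction in every alternative run. Under HFD it was 1 with the DESeq2 Wald test and 1 with edgeR's likelihood ratio test (Gm23823 in both), over both diets 2 and 1, and 0 in the other alternatives. The number at an unadjusted p under 0.05 under HFD was 546 with all 20 libraries, 590 with a12 kept as WT, 2864 with a1 kept as KO and 647 with the length score as covariate, against 1622. Of these, 38.3%, 38.1%, 60.7% and 45.7% were higher in KO, against 58.4%. Leaving out 1 library gave 665 to 3571. For the respiratory chain genes the number was 3, 3, 59 and 1 in the same 4 settings, and for ribosomal protein genes 1, 3, 56 and 0. The cause was not tested. Gm23823, Lamtor1, Fhit, Nme2, Ostc, Emg1, Syne3, Zbtb20, Pdik1l, Lrrc75b, Slco4c1 and Atxn1, named for their small p, kept their sign and an unadjusted p under 0.05 in each alternative that tested them, as did Myadml2os. Of the others chosen by small p, Gm16418 and Cox16 had an unadjusted p above 0.05 in 2 of 20 alternatives (up to 0.126 and 0.162) and Pde4d in 1 (0.0582). Prrg4, named for its large difference without overlap, also kept its sign and an unadjusted p under 0.05. The alternatives reuse the HFD libraries that chose these genes, so nothing is read from this.

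Leaving out each library in turn, the log2 fold change ranged from -0.13 to 0.17 for Egfr, from -0.10 to 0.21 for Btc, from -0.35 to 0.84 for Nrg2 and from -0.0425 to 0.42 for Akr1b7. For Nrg1 the range was -0.47 to -0.14. The median of lists ranged from -0.17 to -0.013 for vascular tone, -0.0451 to 0.0803 for endothelium, -0.0729 to 0.0763 for smooth muscle, -0.0384 to 0.0922 for the collecting duct, -0.34 to 0.0561 for the clock, 0.22 to 1.56 for adipocytes, 0.00046 to 0.19 for tubular injury, -0.17 to -0.0395 for podocytes, -0.0975 to 0.0724 for the loop of Henle, 0.0323 to 0.13 for the proximal tubule, -0.15 to -0.0173 for fibrosis, -0.0887 to 0.22 for macrophages, -0.0434 to 0.19 for lymphocytes, -0.0044 to 0.12 for interferon response, -0.0468 to 0.16 for the adrenal cortex, -0.12 to 0.13 for diet-responsive genes, -0.0544 to 0.0563 for male-biased genes, 0.0799 to 0.22 for the cell cycle, 0.0405 to 0.13 for sterol synthesis, 0.21 to 0.51 for red blood cells, -0.33 to -0.15 for EGF receptor ligands, -0.12 to -0.0434 for the receptor family and -0.0947 to 0.00500 for fatty acid oxidation. With a12 kept as WT, the median of the endocytosis list was 0.0851 and the log2 fold change of Btc -0.0584, and with the clock score as covariate Btc was at -0.011.

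With the length score as covariate, chosen after seeing the data, medians were 0.15 for EGF receptor ligands, 0.0516 for feedback and targets, 0.34 for endothelium, 0.12 for vascular tone, 0.38 for podocytes, 0.0208 for endocytosis, 0.21 for fibrosis, 0.25 for lymphocytes, 0.24 for macrophages, 1.34 for adipocytes, 0.81 for immunoglobulin genes, -0.0738 for red blood cells, -0.16 for fatty acid oxidation, 0.27 for sterol synthesis, 0.23 for interferon response, 0.54 for immediate-early genes, 0.0327 for redox defence, 0.0246 for respiratory chain and -0.0283 for ribosomal protein genes. Log2 fold changes of opposite sign were 0.0797 for Nrg1, 0.30 for Hbegf, 0.0569 for Spred1, 0.0843 for Ednrb, 0.011 for Mylk, 0.0568 for Cd2ap, 0.14 for Actn4, -0.0058 for Ctsd, -0.022 for Pvalb, 0.0327 for Timp2, 0.37 for Loxl2, -0.19 for Hba-a2, -0.20 for Hba-a1, 0.16 for Dusp1, -0.14 for Kap and 0.015 for Acsm3. The cause was not tested.

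No paired analysis was possible because the groups compared share no replicate numbers. Total counts of 19643033 to 24906014 limit the precision at genes of few counts.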
